A study of Mus musculus with 10 samples.

Results

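Transcripts of 10 genes of antioxidant defence were followed in right atrial RNA-seq: the transcription factor gene Nfe2l2, its known targets Nqo1, Hmox1, Gclc, Gclm, Txnrd1 and Srxn1, and the enzymes Sod2, Cat and Gpx3. They were picked by symbol from the 23337 genes of the deposited count table, and all 10 were present and passed the low-count filter, among 13084 genes tested. The libraries came from 10 mice of mixed strain, 4 labelled control (M1, M2, F1 and F2, where the letter is the labelled sex) and 6 labelled Tbx5 mutant (F1 to F3 and M1 to M3). In the mutant mice, a tamoxifen-inducible Cre under the ubiquitous R26 promoter removes exon 3 of Tbx5, which encodes a T-box transcription factor of the atrium. For its left atrial samples the study gives R26CreERt2 as the control genotype and Tbx5 fl/fl;R26CreERt2 as the mutant genotype. The genotype labels of these right atrial mice read only "Control" and "R26Cre driven TBX5 removal". They do not say whether these controls carried the Cre. The mice received 0.167 mg of tamoxifen daily over 3 days, and the atria were collected 1 week afterwards from mice labelled 8 to 10 weeks old (6 to 8 weeks in the protocol). The R26 promoter is not limited to a cell type, so excision was not designed to be restricted to cardiomyocytes. In bulk tissue, fewer cells of a type and less RNA per cell cannot be told apart.

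Nrf2, the protein of Nfe2l2, is held in the cytoplasm and marked for degradation by Keap1. When oxidants or electrophiles modify Keap1, Nrf2 accumulates, enters the nucleus, pairs with a small Maf protein and binds antioxidant response elements, where Bach1 competes with it. Its targets rebuild glutathione and thioredoxin, reduce quinones and break down haem. Sod2 turns superoxide into hydrogen peroxide, and Cat turns hydrogen peroxide into water and oxygen. Gpx3 is a secreted selenoprotein that reduces peroxides with glutathione.

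In the mice labelled Tbx5 mutant, the quinone reductase Nqo1 was 2.03-fold higher, the haem oxygenase Hmox1 1.58-fold higher and the glutathione synthesis subunit Gclm 1.53-fold higher than in the mice labelled control. Gpx3, the most abundant member per length, went the other way and was 2.72-fold lower. Nfe2l2 itself was 1.24-fold higher and Srxn1, which repairs peroxiredoxins, 1.32-fold higher, both past the adjusted p threshold of 0.05 but below the fold of 1.5 required for a call. Gclc, Txnrd1, Sod2 and Cat did not pass the test, with log2 fold changes between 0.13 and 0.20. A call required an adjusted p under 0.05 (edgeR's quasi-likelihood test, Benjamini-Hochberg over all tested genes), a fold change over 1.5 and a mean deposited normalized signal over 1 in the control mice. By that rule 3 of the 10 genes were called higher, against a background of 8.5% of all tested genes, and 1 was called lower, against 7.16%. Over both directions 4 of 10 were called, against 15.7%. By the adjusted p alone, 5 were higher, against 16.3% of all genes, and 1 was lower, against 15.0%. The median log2 fold change of the 10 genes was 0.26, beside -0.005 over all genes tested.

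Sequences around the transcription starts are shown first because antioxidant response elements are the letters through which Nrf2 is known to act. RefSeq windows of GRCm38.p6, from 250 bases before to 50 after each start, were matched by symbol for 8 of the 10 genes, as 10 windows (3 for Txnrd1); Hmox1 and Gclc are only named. The windows were searched on both strands for the element core TGACNNNGC, for a second form TGAGNNNGC added after the first search, and for the T-box core AGGTGT. The first form occurred in 12.392% of all 32851 promoter windows, the second in 17.649%, either of them in 27.786%, and the T-box core in 13.741%. Nfe2l2, Gclm, Txnrd1 and Srxn1 held the first form, Srxn1 alone among the 8 genes searched held the second, and none of the 8 held the T-box core in these windows. The next 4 sequences are the stretches around the matches, 5′ to 3′ on the gene's strand, with the matching letters in capitals.
Srxn1 (chr2:152105341-152105573, forward strand): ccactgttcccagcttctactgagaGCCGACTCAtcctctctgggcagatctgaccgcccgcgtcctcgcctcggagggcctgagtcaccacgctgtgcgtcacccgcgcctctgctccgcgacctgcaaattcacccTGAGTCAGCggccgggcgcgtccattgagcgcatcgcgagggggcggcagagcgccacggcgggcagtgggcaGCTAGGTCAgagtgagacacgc
Gclm (chr3:122245398-122245456, forward strand): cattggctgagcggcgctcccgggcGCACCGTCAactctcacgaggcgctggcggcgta
Txnrd1, second of 3 starts (chr10:82859089-82859147, forward strand): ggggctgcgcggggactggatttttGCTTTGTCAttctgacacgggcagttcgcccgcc
Nfe2l2 (chr2:75704870-75704913, reverse strand): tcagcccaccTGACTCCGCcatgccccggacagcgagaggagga

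In Srxn1 the second form lay 158 bases before the start on the opposite strand and 45 bases before it on the gene's own strand, and the first form began at base 29 after the start. The Gclm match lay 134 bases before the start, the Txnrd1 match 92 and the Nfe2l2 match 240. The members with the largest rise and the largest fall, Nqo1 and Gpx3, had no match in their windows, which are printed whole here. A missing match says only that these letters are not in these bases.
Nqo1 (chr8:107403156-107403455, reverse strand): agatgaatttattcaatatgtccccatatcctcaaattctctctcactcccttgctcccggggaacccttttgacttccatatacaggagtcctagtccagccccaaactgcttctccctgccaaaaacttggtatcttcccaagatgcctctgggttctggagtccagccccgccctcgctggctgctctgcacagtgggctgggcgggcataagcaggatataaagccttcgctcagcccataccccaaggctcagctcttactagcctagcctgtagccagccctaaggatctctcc
Gpx3 (chr11:54902604-54902903, forward strand): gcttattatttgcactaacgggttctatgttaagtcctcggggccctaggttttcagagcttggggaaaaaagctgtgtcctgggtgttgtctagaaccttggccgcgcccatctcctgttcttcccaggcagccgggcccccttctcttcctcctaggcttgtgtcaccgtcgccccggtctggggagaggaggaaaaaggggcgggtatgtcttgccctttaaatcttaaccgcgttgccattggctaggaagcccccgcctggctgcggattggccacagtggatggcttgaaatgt

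The libraries held between 5703775 and 7095141 counted reads, and every member had at least 41 reads in every library. Levels are given as CPM, the depth-scaled count on the TMM-adjusted library size, with SD over mice. The targeted gene went against its label: Tbx5 was at 215, 198, 224 and 184 CPM in the control mice, and between 275 and 475 CPM, with a median of 417, in the mutant mice. Every mutant mouse was above every control mouse, with a log2 fold change of 0.94 ± 0.15 (SE, adjusted p = 0.000495). The count covers the whole gene and does not separate transcripts with and without exon 3, so it gives no measure of excision, and every direction here is relative to the labels. Ryr2 and Sln, calcium-handling genes known to depend on Tbx5, were lower in every mouse labelled mutant than in every control mouse. Their log2 fold changes were -1.65 (adjusted p = 2.99e-05) and -0.98 (adjusted p = 0.000264). Both were picked after their values were seen, and Atp2a2, which the study names beside them, is not given here. The atrial markers Nppa, Myl4 and Myl7 were among the abundant transcripts in both groups. Myl7 nevertheless fell from a mean of 6372 CPM in control to 960 CPM in mutant (log2 fold change -2.73, adjusted p = 9.4e-08). However, 5 of 6 tested atrial markers were lower in the mutant mice by the adjusted p, against 15.0% of all tested genes. Xist and Ddx3y went against the labelled sex in all 4 control mice and matched it in the 6 mutant mice, so a comparison within 1 labelled sex sets controls of one sex, by these genes, against mutants of the other. Mutant M3 stood apart with 38.9% of its counts on the ribosomal gene Rn45s, against 0.268% to 1.49% in the other libraries, and mutant M2 with 62 reads of the fat gene Adipoq, against 0 to 9.

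The members were best ordered by what they do. Nfe2l2 (ENSMUSG00000015839.6) lies on the reverse strand of chromosome 2, from 75675513 to 75704641 in GRCm38. It was at 71.3, 74.9, 77.0 and 83.2 CPM in control and between 84.4 and 113 CPM, with a median of 93.0, in mutant. The groups did not overlap, though control F2 and mutant M3 lay close to each other. The difference was 0.31 ± 0.10 on the log2 scale (SE, adjusted p = 0.0231). Its adjusted p rose to between 0.0528 and 0.0637 without control M1, M2 or F1, and to 0.0893 once each library's trend on transcript length was removed.

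**Figure D1:**
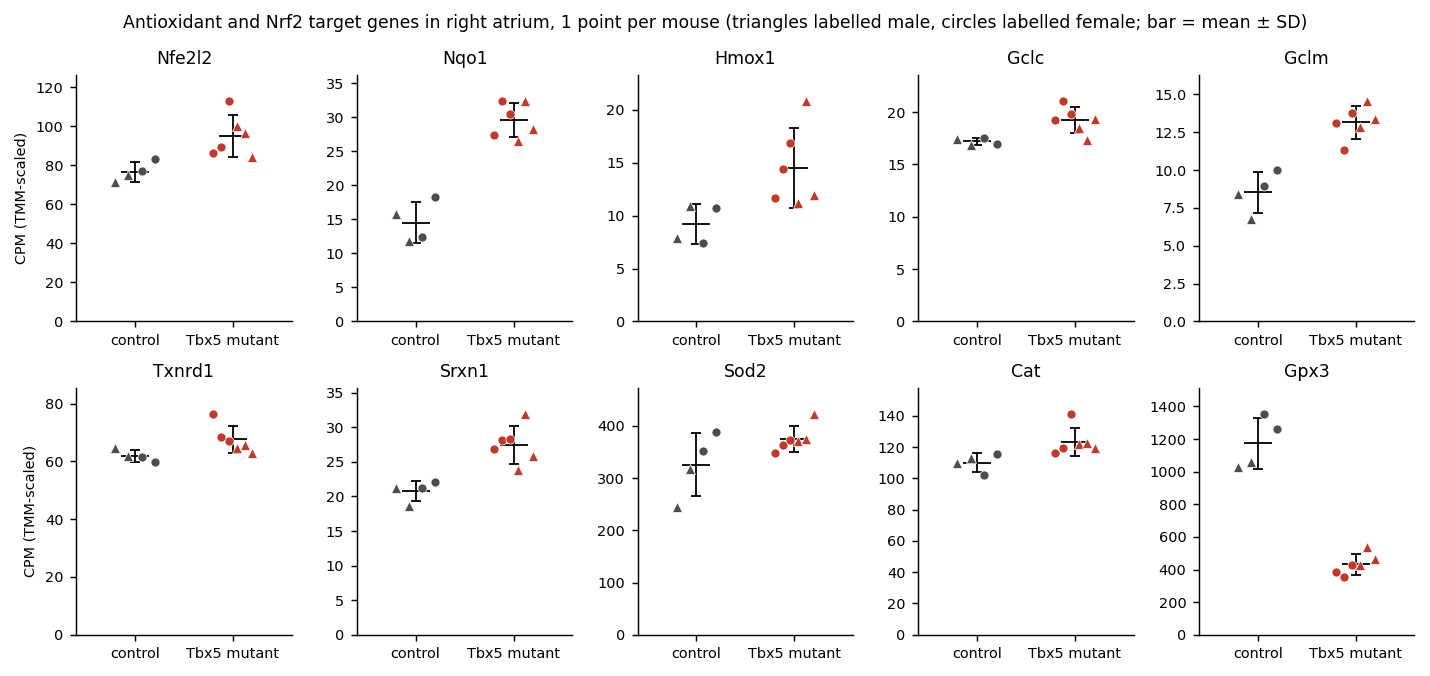
CPM of the 10 genes (y axis, from 0) in the 4 mice labelled control and the 6 labelled Tbx5 mutant, 1 point per mouse, triangles for labelled males and circles for labelled females, with mean and SD as bars. Gpx3 falls from a mean of 1175 to 432 CPM and Nqo1 rises from 14.5 to 29.6 CPM without overlap, while the Sod2 and Txnrd1 points overlap.

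Nqo1, a quinone reductase widely used as a readout of Nrf2 activity (ENSMUSG00000003849.8, chromosome 8, 107388225 to 107403206, reverse strand), had the largest rise of the members. Control mice held 15.7, 11.7, 12.4 and 18.3 CPM, and mutant mice between 26.6 and 32.4 CPM with a median of 29.4. The mutant mice lay close together, with a coefficient of variation of 8.48% against 20.9% in control, and the lowest of them was well above the highest control. The log2 fold change was 1.02 ± 0.13 (SE, adjusted p = 8.03e-05). It stayed between 0.85 and 1.16 and past the threshold in all 26 alternative fits.

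Hmox1 (ENSMUSG00000005413.8, chromosome 8, 75093621 to 75100589, forward strand) encodes the enzyme that opens haem to biliverdin, iron and carbon monoxide. It was at 7.86, 10.9, 7.37 and 10.7 CPM in control and between 11.1 and 20.8 CPM, with a median of 13.2, in mutant. The groups did not overlap, but control M2 and mutant M1 were close, and mutant M2 and F3 stood above the other mice. The log2 fold change was 0.66 ± 0.20 (SE, adjusted p = 0.0196). Hmox1 was no longer past the threshold without control M1 (adjusted p = 0.0598) or control F1 (adjusted p = 0.0653), nor after removal of the length trend (adjusted p = 0.0536), and without mutant M2 its log2 fold change was 0.54, under the fold required.

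Hmox1 is also a gene of macrophages, which clear haem, and macrophage transcripts moved with it. Of 10 macrophage markers, 8 were higher in the mutant mice by the adjusted p and none was lower. Over all tested genes the shares were 16.3% and 15.0%. The summed level of the macrophage markers was 654 to 941 CPM in control and 1023 to 1514 CPM in mutant. No marker of the list was at 0. Hmox1 as a share of that sum was 1.05% to 1.38% in control, with a median of 1.14%, and 0.938% to 1.38% in mutant, with a median of 1.18%, so the shares overlapped over almost their whole range. The part of macrophages in the Hmox1 difference was not tested. Haem itself comes mostly from red cells. Of 8 erythroid markers, 6 were in the table and 2 could be tested, Beta-s and Alas2. Both were higher in mutant by the adjusted p, but both overlapped between the groups. The summed level was 85.0 to 192 CPM in control and 114 to 596 CPM in mutant. The beta globin gene Beta-s alone was at 74.4 to 177 CPM in control and 102 to 548 CPM in mutant. An mRNA kit after globin removal is among the protocols named, so globin counts may not follow the amount of blood. Both alpha globin genes were at 0 reads in every library, and the part of blood in the Hmox1 difference was not tested.

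**Figure D2:**
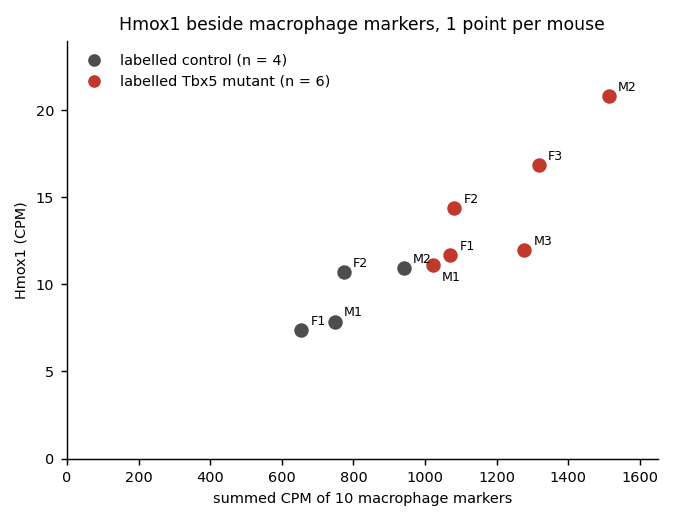
Hmox1 (y axis, CPM) against the summed CPM of 10 macrophage markers (x axis), 1 labelled point per mouse, grey for mice labelled control and red for mice labelled Tbx5 mutant. The mutant mice lie to the right of and above all control mice, with mutant M2 highest on both axes at 1514 and 20.8 CPM.

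Glutathione synthesis begins with the ligase formed by a catalytic subunit, Gclc, and a modifier subunit, Gclm. Gclm (ENSMUSG00000028124.15, chromosome 3, 122245557 to 122270732, forward strand) was at 8.43, 6.78, 8.94 and 10.0 CPM in control and between 11.3 and 14.6 CPM, with a median of 13.2, in mutant. The groups did not overlap, and the log2 fold change was 0.62 ± 0.13 (SE, adjusted p = 0.00339). It was just over the fold required, and without control M2 it was 0.53 and under it. Annotated antisense and pseudogene exons cover 4.705% and 3.879% of the exon bases of Gclm, and whether counting used the strand is not given in the sources used here. The catalytic subunit Gclc (ENSMUSG00000032350.9, chromosome 9, 77754535 to 77794485, forward strand) was very even, at 16.9 to 17.6 CPM in control and 17.3 to 21.1 CPM in mutant. Only mutant M2 fell within the control range of Gclc, but the log2 fold change was 0.16, with a 95% interval from -0.04 to 0.36 (adjusted p = 0.207). Per kilobase of the longest transcript, the mean level of Gclm was 1.53 CPM in control and 2.35 in mutant, beside 5.02 and 5.61 for Gclc.

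The thioredoxin arm was represented by the selenoenzyme Txnrd1, which reduces thioredoxin, and Srxn1, which reactivates over-oxidized peroxiredoxins. Srxn1 (ENSMUSG00000032802.8, chromosome 2, 152105516 to 152111376, forward strand), whose window held the most matches above, was at 21.3, 18.7, 21.2 and 22.1 CPM in control and between 23.8 and 31.9 CPM, with a median of 27.5, in mutant. All mutant mice were above all control mice, and the log2 fold change was 0.40 ± 0.10 (SE, adjusted p = 0.00877). Txnrd1 (ENSMUSG00000020250.10, chromosome 10, 82833951 to 82897712, forward strand) was at 59.7 to 64.7 CPM in control and 62.9 to 76.3 CPM in mutant, with mutant M3 inside the control range. Its log2 fold change was 0.13, with a 95% interval from -0.04 to 0.30 (adjusted p = 0.232).

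Sod2, the manganese superoxide dismutase of mitochondria (ENSMUSG00000006818.5, chromosome 17, 13006846 to 13040063, forward strand), was at 245, 318, 352 and 388 CPM in control and between 347 and 422 CPM, with a median of 372, in mutant. The control mice were spread widely, from control M1 at the bottom to control F2, which was above all mutant mice but M3. The log2 fold change was 0.20, with a 95% interval from -0.05 to 0.46 (adjusted p = 0.21). In the mice labelled male it was 0.47 and in those labelled female -0.03, neither past the threshold. Because of the labels of the control mice these are not contrasts within a sex, and the difference between them was not tested. Cat, the peroxisomal catalase (ENSMUSG00000027187.10, chromosome 2, 103453849 to 103485160, reverse strand), was at 110, 113, 102 and 116 CPM in control and between 117 and 141 CPM, with a median of 121, in mutant. The Cat groups touched without overlapping, with a log2 fold change of 0.17 and a 95% interval from -0.01 to 0.34 (adjusted p = 0.134).

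Gpx3 (ENSMUSG00000018339.11, chromosome 11, 54902453 to 54910377, forward strand), the extracellular glutathione peroxidase, was the one member that was lower. Control mice held 1027, 1060.4, 1352 and 1260.3 CPM, and mutant mice between 355 and 535 CPM with a median of 428. Even the highest mutant mouse, M2, was far below the lowest control. The log2 fold change was -1.44 ± 0.13 (SE, adjusted p = 3.62e-06). Per kilobase of the longest transcript, Gpx3 ranked 33rd of 12951 genes in control, at 737 ± 98.3 CPM per kb (SD, n = 4), and was at 271 ± 39.4 (SD, n = 6) in mutant. It remained lower and past the threshold in all 26 alternative fits, with log2 fold changes from -1.75 to -1.13. The smallest of these differences came from the mice labelled male and the largest from those labelled female, which are again not contrasts within a sex, and the difference between them was not tested. With sex as a covariate, exchanged in the control mice, the log2 fold change of Gpx3 was -1.44 (adjusted p = 3.76e-07).

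Over the 10 genes, 7 had groups that did not overlap, 6 of them higher and 1 lower in mutant, against 22.7% of all genes tested. Groups without overlap fix the two-sided exact permutation test at p = 0.00952, the smallest that 210 splits of the mice allow. For these 7 that p therefore adds nothing to the lack of overlap. Gclc, Txnrd1 and Sod2 overlapped, with p = 0.0286, 0.019 and 0.133 in the same exact permutation test. The exact p-values are not adjusted for the number of genes, and by the adjusted p of the fit Cat, Gclc, Txnrd1 and Sod2 did not pass. Among the 9 members with a positive log2 fold change, control F2 was the highest control for 6. Mutant M2 was the highest mutant mouse for 3, and mutant M1 the lowest for 3.

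**Figure D3:**
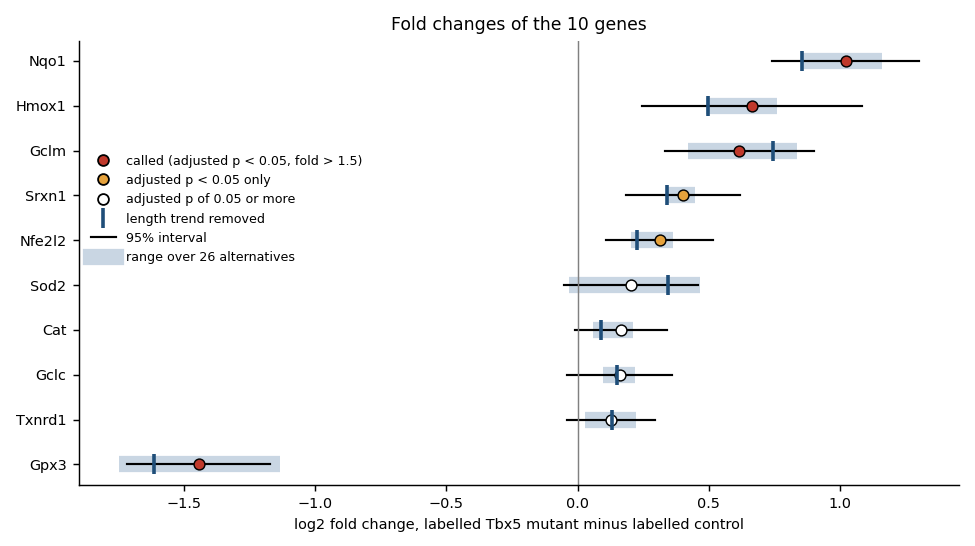
Log2 fold change of the 10 genes (x axis, mice labelled Tbx5 mutant minus control), as points with 95% intervals (black lines), the range over 26 alternative fits (pale bars) and the value with the length trend removed (blue ticks). Nqo1 at 1.02 and Gpx3 at -1.44 stand far from 0 in every fit, while the pale bar of Sod2 crosses 0.

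Shorter transcripts tended to be higher in the mutant mice: over all tested genes with a known length, length and log2 fold change had a Spearman correlation of -0.316, a description over genes that share the same libraries. With that trend removed from every library, Nqo1 was at 0.85 and Hmox1 at 0.50, Gclm at 0.74, Srxn1 at 0.34 and Nfe2l2 at 0.22. Gpx3, though short at 1594 bases, was at -1.61. Nqo1, Gclm, Srxn1 and Gpx3 stayed past the threshold in that fit, and Nfe2l2 and Hmox1 did not. With the replicate number as a block in the same fit, Hmox1 passed (adjusted p = 0.0306) and Srxn1 did not (adjusted p = 0.0618). Mutant F3 and M3 have no control of the same number, so with the block they do not inform the group difference. The other blocks set a control against a mutant of the other sex by Xist and Ddx3y.

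The other glutathione peroxidases set Gpx3 in relief. On the scale of CPM per kb, the cytosolic Gpx1 was at 92.2 ± 10.4 (SD, n = 4) in control and 136 ± 24.3 (SD, n = 6) in mutant. The endoplasmic reticulum members Gpx7 and Gpx8 were at 10.5 and 45.6 in control and 18.1 and 60.5 in mutant. Gpx4, which reduces lipid peroxides, was at 18.7 and 27.4, with 61.734% of its 50-base windows shared with pseudogenes, so its level is uncertain. By the adjusted p all of these were higher in mutant, with log2 fold changes of 0.56 for Gpx1 (adjusted p = 0.00575), 0.78 for Gpx7 (adjusted p = 0.00703), 0.40 for Gpx8 (adjusted p = 0.0264) and 0.54 for Gpx4 (adjusted p = 0.00692). These are short transcripts, and with the length trend removed the log2 fold changes were 0.32 for Gpx1 (adjusted p = 0.015), 0.58 for Gpx7 (adjusted p = 0.0237), 0.30 for Gpx4 (adjusted p = 0.0404) and 0.16 for Gpx8 (adjusted p = 0.313). Gpx8 also missed the threshold without control M2, F1 or F2 or mutant M3, at adjusted p of 0.0532, 0.078, 0.0674 and 0.0539. Gpx3 made up 81.3% ± 2.70 (SD, n = 4) of the summed level of these 5 genes in control and 52.9% ± 2.64 (SD, n = 6) in mutant, and the sum itself was 904 ± 92.9 and 513 ± 75.6 CPM per kb. Gpx2 was at 0 reads in every library.

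**Figure D4:**
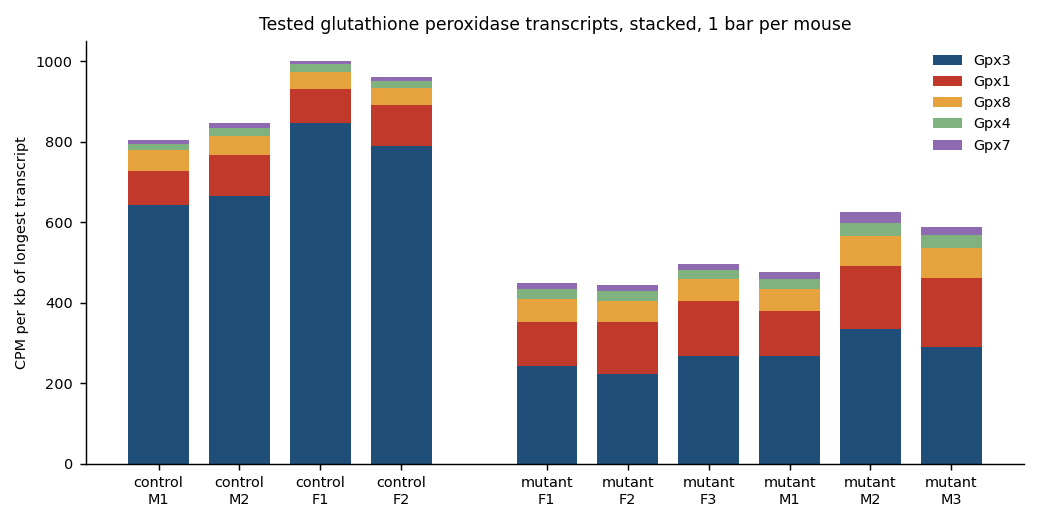
Stacked levels of the 5 tested glutathione peroxidase transcripts (y axis, CPM per kb of the longest transcript), 1 bar per mouse. Gpx3 (dark blue) shrinks from between 644 and 848 in the control mice to between 222 and 336 in the mutant mice, while the other segments are taller on average.

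Of the 15 genes that regulate or partner Nrf2, 2 were called higher and 1 lower, near the background of 8.5% and 7.16%. By the adjusted p alone, 3 were higher and 4 lower, against 16.3% and 15.0% of all tested genes. The median log2 fold change was 0.01. Keap1, the inhibitor, was at 55.4 ± 1.70 CPM (SD, n = 4) in control and 56.4 ± 5.68 (SD, n = 6) in mutant, a log2 fold change of 0.03 (adjusted p = 0.851), with 10.379% of its sequence windows shared with another annotated gene. Bach1, the competitor, was at 75.2 and 71.1 CPM, with a log2 fold change of -0.08 (adjusted p = 0.476). The sign for both genes turned in some alternative fits. Among the small Mafs, which pair with Nrf2, Maff rose from 11.2 ± 2.15 to 20.4 ± 2.95 CPM (log2 fold change 0.86 ± 0.15, adjusted p = 0.00089). Mafk rose from 43.8 ± 3.71 to 68.3 ± 7.90 CPM (log2 fold change 0.64 ± 0.10, adjusted p = 0.000385). Mafg was at 15.0 and 16.4 CPM with an adjusted p of 0.391. The related factor Nfe2l3 fell from 14.5 to 8.41 CPM, with a log2 fold change of -0.80 (adjusted p = 0.000969).

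A list of 28 further Nrf2 targets, such as glutathione transferases, pentose phosphate enzymes and ferritins, had 23 tested members, of which 8 were higher and 4 lower by the adjusted p, against 16.3% and 15.0% of all tested genes, so that the count lower was near the background. The median log2 fold change was 0.25. The carbonyl reductase Cbr3 was called higher, at 2.31 CPM in control and 3.69 CPM in mutant. Its adjusted p was 0.0479, and it no longer met the threshold in 18 of 25 alternative fits. The glutathione transferase Gsta3 was called lower, at 8.56 CPM in control and 4.63 CPM in mutant (log2 fold change -0.90 ± 0.26, adjusted p = 0.0165). Gsta3 was at -0.34 in the mice labelled male (adjusted p = 0.385) and at -0.60 without control F2 (adjusted p = 0.0858). Slc7a11, the cystine carrier that feeds glutathione synthesis, was below the low-count filter and was not tested.

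Among 14 enzymes that make, use or break down glutathione, 12 were tested, 6 were higher and 1 lower by the adjusted p (background 16.3% and 15.0%), and the median log2 fold change was 0.40. Chac1, which degrades glutathione, was called higher, at 5.44 CPM in control and 10.4 CPM in mutant (log2 fold change 0.93 ± 0.16, adjusted p = 0.000867). Gpx7 was the other called higher. Ggct, which acts after glutathione breakdown, fell from 19.7 to 11.7 CPM (log2 fold change -0.77 ± 0.18, adjusted p = 0.00542), but was at -0.18 in the mice labelled male (adjusted p = 0.521). In the thioredoxin list all 22 genes were tested, with 9 higher and 1 lower by the adjusted p (background 16.3% and 15.0%) and a median log2 fold change of 0.29. Thioredoxin itself, Txn1, was at 42.4, 43.2, 41.7 and 45.9 CPM in control and between 66.5 and 90.0 CPM, with a median of 70.2, in mutant. That was a wide gap for so even a control group, with a log2 fold change of 0.77 ± 0.10 (adjusted p = 8.51e-05). The secretory peroxiredoxin Prdx4 rose by 0.68 ± 0.11 (adjusted p = 0.000602), and with the length trend removed Txn1 was at 0.54 and Prdx4 at 0.44, both under the required fold. Sesn3, a sestrin, fell from 17.4 to 9.73 CPM (log2 fold change -0.83 ± 0.15, adjusted p = 0.000947).

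The list of superoxide and metal handling, with all 12 genes tested, had 4 higher and 2 lower by the adjusted p (background 16.3% and 15.0%) and gave the widest range. The metallothioneins Mt2 and Mt1, which bind zinc and copper and scavenge radicals, were called higher. Mt2 was at 12.7, 10.6, 7.21 and 7.58 CPM in control and between 24.2 and 58.4 CPM, with a median of 34.4, in mutant. This was the largest log2 fold change over all 7 lists, at 1.95 ± 0.25 (adjusted p = 8.65e-05), although 45.455% of the sequence windows of Mt2 also occur in an overlapping annotated gene. Mt1 had a log2 fold change of 1.09 ± 0.21 (adjusted p = 0.0015), with mutant M1 just inside the control range. Mt3, called lower at -1.12 ± 0.40 (adjusted p = 0.044), overlapped between groups, missed the threshold in 11 alternative fits and had the opposite sign, 0.28, in the mice labelled male. Sod1 and Sod3, the cytosolic and extracellular dismutases, had adjusted p of 0.599 and 0.529.

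Of 12 genes whose products generate superoxide or peroxide, 9 were tested, 4 were higher and none was lower by the adjusted p (background 16.3% and 15.0%), and the median log2 fold change was 0.46. Ncf1, which encodes a subunit of the phagocyte NADPH oxidase, was called higher, at 9.62 CPM in control and 19.4 CPM in mutant. Its log2 fold change was 1.02 ± 0.17 (adjusted p = 0.000477), with 8.154% of its windows shared with other genes. Ncf4, another subunit gene, was called higher, at 2.78 CPM in control and 4.44 CPM in mutant (log2 fold change 0.69, adjusted p = 0.0481). It lost the threshold in 16 of 25 alternative fits. Cybb, which encodes the catalytic subunit, was at 29.6 ± 1.70 and 44.2 ± 3.45 CPM, with an adjusted p of 0.000351 and a log2 fold change of 0.58 that missed the required fold narrowly. Macrophage markers were higher too, and the part of macrophages in the oxidase genes was not tested. Bulk counts do not show which cells held these transcripts. Of the 10 synthesis factors and further selenoproteins in the last list, 0 passed the adjusted p threshold in edgeR, DESeq2 or limma, with log2 fold changes between -0.23 and 0.17. At an unadjusted p under 0.05 the counts were 0 in edgeR and limma and 1 in DESeq2. Gpx3 and Txnrd1 among the 10 antioxidant genes are selenoproteins themselves. Over all 7 lists, with 103 of 113 genes tested, 12 were called higher and 5 lower, beside 8.5% and 7.16% of all tested genes. By the adjusted p alone, 34 of the 103 were higher, above the 16.3% of all tested genes, and 12 were lower, beside 15.0%. Without mutant M2 and M3 together the count called higher was 7.

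**Figure D5:**
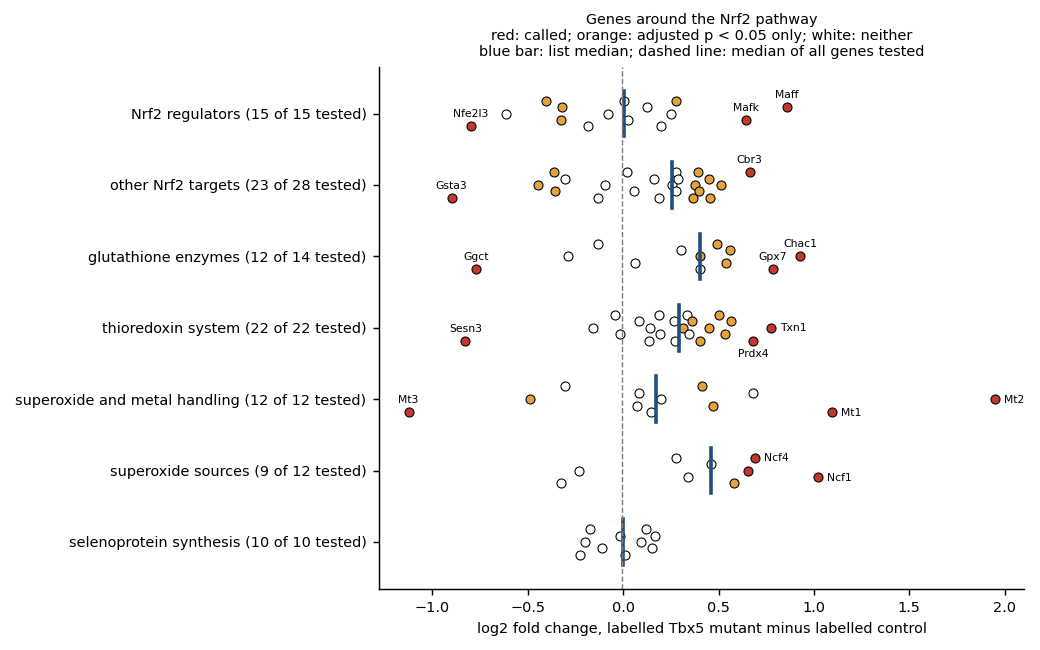
Log2 fold change (x axis, mice labelled Tbx5 mutant minus control) of each tested gene in 7 lists around the Nrf2 pathway, with called genes in red, genes past the adjusted p alone in orange and the others in white, and the list medians as blue bars. Mt2 at 1.95 lies farthest to the right, Mt3 at -1.12 farthest to the left, and the selenoprotein synthesis list has no coloured point.

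Genes with a like profile were sought by the root mean square difference of log2 CPM over the 10 libraries. Each gene was centred on its own mean over both groups, so genes with a like fold change between the groups tend to be near. Closest to Nfe2l2 among 13083 genes were Plxnb2 (0.0777), Ppp1r8 (0.0852) and Cxxc1 (0.0863), and the nearest of the other 9 members was Cat (0.106). Closest to Nqo1 were Sertad1 (0.141), the glutathione-degrading Chac1 (0.158) and the intermediate filament gene Des (0.16), while Gclm, the nearest member, was at 0.259. Closest to Gpx3 were Fgf13 (0.118), Slc17a7 (0.178) and Phkg1 (0.182), a subunit gene of phosphorylase kinase. The median over all genes was 0.322 for Nfe2l2, 0.597 for Nqo1 and 0.765 for Gpx3. The least distant member from Gpx3 was Txnrd1 at 0.802. Gpx3 was the only member with a negative log2 fold change, so a wide distance to the others follows from the measure.

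Other cell type transcripts were also counted, beside which the values above stand. By the adjusted p, 16.3% of all tested genes were higher in mutant and 15.0% lower. Of 7 fibroblast markers, 4 were higher and 1 lower in mutant by the adjusted p. Their summed level was 3857 to 5168 CPM in control and 7040.3 to 10220.4 in mutant. The higher ones were Col1a1, Col1a2, Col3a1 and Postn, while Pdgfra was lower (log2 fold change -0.40) and Dcn was at -0.01. Of 6 endothelial markers, 1 was higher, near the share of all tested genes. Of 7 cardiomyocyte markers, 3 were higher and 1 lower. Of 4 tested ventricular markers 2 were higher, with sums of 193 to 299 CPM in control and 790 to 1589 in mutant. Among these, Myl3 rose from a mean of 45.4 to 688 CPM (log2 fold change 3.92, adjusted p = 6.1e-09), while Myh7 and Hey2 did not pass the threshold. The part of these cell types in the results for the 10 genes was not tested.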

How the data were processed

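Right atrial RNA from 10 mice was sequenced as 1 library per mouse, and nothing in the labels says more about how far the mice were separate than that each is its own sample, so p-values measure the spread between these samples. The submitters' processing notes name FastQC, TopHat2 2.0.11, featureCounts and DESeq2 and the build mm10. The protocols name both an mRNA kit after globin removal and a ribosomal depletion of total RNA, and the reads were single-end. The authors deposited whole-number read counts per gene and, beside them, a normalized signal, each count divided by a size factor per library. Their own comparison (log2 fold change, error, score, p-value and ratio) was not used. No per-library column was left without a sample (0 columns).

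Counts were compared with edgeR 4.0.16 in R 4.3.3 (expression filter, TMM scaling, quasi-likelihood test over all 10 libraries, no covariate, prior count 0.125), with Benjamini-Hochberg adjustment over all tested genes. The call thresholds follow those the study used for coding genes. Each standard error was obtained from the log2 fold change and its F statistic. The exact permutation test was two-sided. A pseudocount of 0.1 CPM was added for the likeness of profiles. Total counts per library of 5703775 to 7095141 put the floor of 3 reads at 0.423 to 0.526 CPM. The intervals given with log2 fold changes were built from the standard error of the fit. Like the p-values, they include the spread between samples and not counting error alone. Lengths, positions and shared 50-base windows came from the GENCODE M21 transcripts of GRCm38, the genome that mm10 names, and promoters from RefSeq. The fits were tested on simulated counts.

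Named genes were the 10 members, Tbx5, the Nrf2 partners Keap1, Bach1, Mafg and Mafk, in each list up to 3 genes called higher and 3 lower with the largest change, and the 3 genes most like Nfe2l2, Nqo1 and Gpx3. 1 gene of these is not reported here. Others were named after their values were seen: Gpx1, Gpx4, Gpx8 and Gpx2 as the family of Gpx3, and Cybb, Sod1, Sod3, Slc7a11, Nnt, Ryr2, Sln, Myl7 and Myl3. The members, the lists and the alternatives were chosen with earlier results of these data known. Alternatives were other scalings (RLE, upper quartile), filters, DESeq2 1.42.0, limma 3.58.1 with a trend, a prior count of 1, sex as a covariate, a replicate block, subsets of mice, counts without Rn45s, other thresholds and removal of the length trend with a lowess span of 0.4.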

Additional observations from a re-analysis of the deposited data

Results flagged for a closer look

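Values of single mice that stood apart from the rest of their group were sought among the named genes, by comparing the gap to the nearest mouse with the whole range of the group (Dixon's 95% critical value). Of 78 groups of values 8 were singled out, where chance gives about 1 in 20, or 3.9. No explanation was weighed for any of them.

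Among the 10 antioxidant genes, mutant M3 had 422 CPM of Sod2, where the remaining mutant mice had 347 to 374, and Cat was at 141 CPM in mutant F3, against 117 to 123. Mafk was at 49.3 CPM in control M1, against 41.4 to 42.5 in the other control mice, and at 83.1 CPM in mutant M2, against 61.4 to 69.2. Maff was at 14.7 CPM in mutant M1, below the 20.7 to 23.4 of the other mutant mice. Mutant M2 had 35.8 CPM of Gpx7, and its group otherwise 18.5 to 23.4. Ppp1r8 was at 29.8 CPM in mutant F3, against 24.8 to 26.4, and Phkg1 at 58.5 CPM in mutant M1, against 42.4 to 47.1.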

How the results depend on the processing

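Nqo1, Gpx3, Gclc, Txnrd1 and Cat kept their direction and their side of the threshold in all 26 alternative fits. The 10 members together had 260 such fits, of which 242 did so, 17 lost the threshold and 1 turned the sign (Sod2, -0.033 in the mice labelled female). The causes were not tested. The members called higher, 3 at first, numbered 1 in the mice labelled female, 1 without mutant M2 and M3 together, 5 with no fold threshold and 1 with a fold over 2, and 2 to 3 when single mice were omitted. The members past the adjusted p and higher, 5 at first, numbered 2 in the mice labelled male, 1 in those labelled female, 3 with the length trend removed (Nqo1, Gclm and Srxn1) and 3 with the block too (Nqo1, Gclm and Hmox1), 3 at an adjusted p under 0.01, and 3 to 5 with single mice omitted, the 3 without control M1 or F1. The pathway genes called higher, 12 at first, numbered 7 without mutant M2 and M3, 34 with no fold threshold and 3 with a fold over 2, and 9 to 16 with single mice omitted. Those called lower, 5 at first, numbered 2 in the mice labelled male, 3 at an adjusted p under 0.01, 12 with no fold threshold, 1 with a fold over 2, and 3 to 5 with single mice omitted, the 3 without control F2. Of all genes, 1112 were called higher and 937 lower, or 2129 and 1967 with no fold threshold and 539 and 367 with a fold over 2, and 653 were higher among genes with a mean count of at least 50. For other named genes the sign turned for Keap1 (-0.016 in the mice labelled male, -0.0093 to 0.057 with single mice omitted, the lowest without mutant F1), Bach1 (0.016 in the mice labelled female, 0.060 with the length trend removed, 0.048 with the block too) and Mt3 (0.28 in the mice labelled male). Replicate numbers did not pair the mice: deviations of the 4 same-numbered pairs correlated between -0.047 and 0.0358. With the replicate number as a block, 4 members were past the adjusted p and higher, Nfe2l2 being lost (adjusted p = 0.0667), and 3 were called higher and 1 lower. Mutant F3 and M3, without a control of the same number, do not inform the group difference in that fit. The scalings moved the median of all genes by at most 0.0312. Reads per library were as few as 41 for Gclm and 44 for Hmox1, and their part in the error was not tested.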

Other observations

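Nnt, the mitochondrial transhydrogenase that supplies NADPH for glutathione and thioredoxin reduction, was at 150 CPM in control M1 and at 290, 320 and 337 CPM in control M2, F1 and F2, while the mutant mice held 257 to 358 CPM. The annotation holds Nnt under 2 gene identifiers with shared sequence, and the gene was picked after its values were seen.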
